A study of Homo sapiens with 5 samples.

Results

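Simple epithelial and biliary keratins were examined as a set of 8 named genes, and every probe whose platform gene symbol was one of them was taken. That gave 7 probes of 28264 in the table, standing for 7 of 19090 named genes, with 1 probe each for KRT8, KRT18, KRT7, KRT19, KRT20, KRT23 and KRT80. KRT81 was not analysed here. The cells were MHCC97H, a human hepatocellular carcinoma line with high metastatic potential, kept in DMEM with fetal bovine serum. Stable lines selected with puromycin for 1 week carried either an empty vector (2 arrays), ACOT12 (2 arrays) or an ACOT12 mutant (1 array), so that all groups had been through vector delivery and selection. ACOT12 is a thioesterase that splits acetyl-CoA into acetate and coenzyme A, and the series asks which genes lie downstream of it. The labels name neither the residue changed in the mutant nor the promoter that drives the transgenes, and they do not say whether replicates were separate cultures. The p-values below therefore measure only the spread between these arrays, which may be technical.

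Keratins are the intermediate filament proteins of epithelia. A filament is built from pairs of 1 acidic type I chain and 1 basic type II chain, so that each cell type is known by the pairs it makes. Hepatocytes hold KRT8 (type II) with KRT18 (type I), whereas bile duct cells add KRT7 (type II) and KRT19 (type I). In liver cancer, KRT7 and KRT19 are read as biliary or progenitor features, and KRT19 is used as a marker of aggressive tumours. KRT20 is a type I keratin of intestinal epithelium, KRT23 is a type I keratin, KRT80 is a type II keratin found in several epithelia, and KRT81 is a type II hair keratin. By RefSeq gene order (GRCh38.p14), KRT8 and KRT18 are direct neighbours among coding genes on chromosome 12, as are KRT80 and KRT7. KRT20 and KRT23 are direct neighbours on chromosome 17, where KRT19 also lies.

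RefSeq promoter sequence was matched for 2 of the 8 keratins, KRT8 and KRT20, the first a hepatocyte keratin and the second an intestinal one. The 250 bases before each matched start site are shown to set the hepatocyte gene beside the intestinal gene whose probe was bright in these liver cells. Capitals mark matches to any of 5 motifs, searched for on both strands. TATAAA is a form of the TATA box, which the TATA-binding protein recognises, and only this exact form was searched for. The AP-1 factors Fos and Jun recognise TGANTCA. The factor Sp1 is known to bind boxes of the form GGGCGG. Nuclear factor Y recognises the pentamer CCAAT. The intestinal homeobox factors CDX1 and CDX2 recognise a core of TTTATG, written on its other strand as CATAAA. The matches found did not overlap each other. The KRT8 window is chr12:52926470-52926719 and the KRT20 window chr17:40885243-40885492, both GRCh38.p14 and both on the minus strand, written 5′ to 3′ on the gene's strand.
KRT8: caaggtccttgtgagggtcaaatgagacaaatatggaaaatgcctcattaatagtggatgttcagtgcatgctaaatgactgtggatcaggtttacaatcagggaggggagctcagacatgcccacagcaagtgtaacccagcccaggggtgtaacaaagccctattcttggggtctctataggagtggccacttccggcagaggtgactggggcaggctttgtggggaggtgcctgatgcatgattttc
KRT20: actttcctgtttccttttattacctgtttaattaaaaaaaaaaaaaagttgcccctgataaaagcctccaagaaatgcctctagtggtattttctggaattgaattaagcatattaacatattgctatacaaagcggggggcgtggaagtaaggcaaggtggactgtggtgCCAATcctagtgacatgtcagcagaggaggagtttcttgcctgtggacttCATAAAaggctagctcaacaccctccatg
The KRT8 window held none of the 5 motifs. Whether the matched KRT8 start is the main start of the gene, or the start used in these cells, was not tested. The absence of motifs therefore describes the printed window only, and other KRT8 starts were not searched. The KRT20 window held the nuclear factor Y pentamer 79 bases before the start and the CDX core, on the other strand, 29 bases before it. In windows of the same length over 35116 RefSeq promoters, that pentamer occurred in 32% and the CDX core in 9.64%. The other motifs occurred in 10.7% (the TATA form), 6.57% (AP-1) and 42.6% (Sp1). A match in these letters is a description and does not show that a factor binds there.

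Intensities are linear probe readings as deposited, and their median over all probes was 616 to 825 per array. Differences are on the log2(intensity + 1) scale with limma's moderated standard errors (SE), and adjusted p-values come from limma, corrected by Benjamini-Hochberg across the 21198 probes whose mean log2 reached 7.34. All 7 keratin probes reached it. Probes bind their targets unequally, so levels are compared between arrays for 1 keratin and never between keratins. Percentiles among all probes of an array are given to show how far a reading lay from the floor. The ACOT12 probe itself read 59.2 and 18.0 with empty vector, 4733 and 4859 with ACOT12 and 4030 with the mutant. That difference was 7.15 log2 for ACOT12 and 6.90 for the mutant, with limma's adjusted p at 0.109 and 0.0510, so the transgene itself missed the threshold in this small design. The median of all tested probes differed from empty vector by 0.06 with ACOT12 and by −0.13 with the mutant. Of these probes, 62.9% read higher with ACOT12 and 36.8% with the mutant, which is the background for the direction counts below. Over all 28264 probes cut into 10 brightness classes, the third from the dim end, which holds KRT23, had medians of 0.36 and 0.44 above the empty vector mean for the 2 ACOT12 arrays and −0.23 for the mutant. In the brightest class, which holds KRT18, KRT19 and KRT20, these were −0.06, −0.03 and −0.02. The cells' labelled type was read from markers. Among 22 measured hepatocyte markers, 14 lay above the array median, with ALB (albumin) between percentiles 54.6 and 71.2. Among 18 measured cholangiocyte (bile duct cell) markers, 13 lay above it, so these counts alone do not tell hepatocyte from bile duct identity. AFP (alpha-fetoprotein, a fetal liver protein), added after values were seen, lay between percentiles 73.0 and 75.8. None of the 22 hepatocyte markers was at or below 0 on any array.

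KRT7 and KRT80 read higher with ACOT12 (2 of 2 arrays) and with the mutant than in either empty vector array, and no keratin passed limma's test after adjustment in any comparison. Of all tested probes, 20.8% lay above both empty vector arrays with ACOT12 and 29.5% with the mutant. The share that did both was not computed. The hepatocyte pair KRT8 and KRT18, the biliary KRT19 and KRT23 differed by no more than 0.27 log2 in any of the 3 comparisons. KRT20 read lowest in the mutant array.

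KRT8, the type II chain of the hepatocyte filament, read 2563 and 1839 with empty vector, 1968 and 1862 with ACOT12 and 2207 with the mutant. Both ACOT12 arrays and the mutant array lay between the 2 empty vector arrays, so the groups overlapped. The difference from empty vector was −0.18 ± 0.20 log2 for ACOT12 (95% interval −0.68 to 0.31) and 0.02 ± 0.25 for the mutant (−0.58 to 0.63), with limma's adjusted p at 0.999 and 0.968. KRT18, its type I partner, read 129326 and 119691 with empty vector, 120838 and 151649 with ACOT12 and 131670 with the mutant. Its probe lay above the 99th percentile on every array. The highest KRT18 reading came from ACOT12 replicate 2 and the other 4 arrays lay close together. The difference was 0.12 ± 0.18 for ACOT12 (−0.31 to 0.56, limma's adjusted p = 0.999) and 0.08 ± 0.22 for the mutant (−0.45 to 0.62, adjusted p = 0.867). These intervals, from values without rescaling, exclude a doubling of either hepatocyte keratin with either transgene. Intervals after rescaling were not computed. The direction for KRT18 with ACOT12 turned to −0.0071 with median centring.

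**Figure D1:**
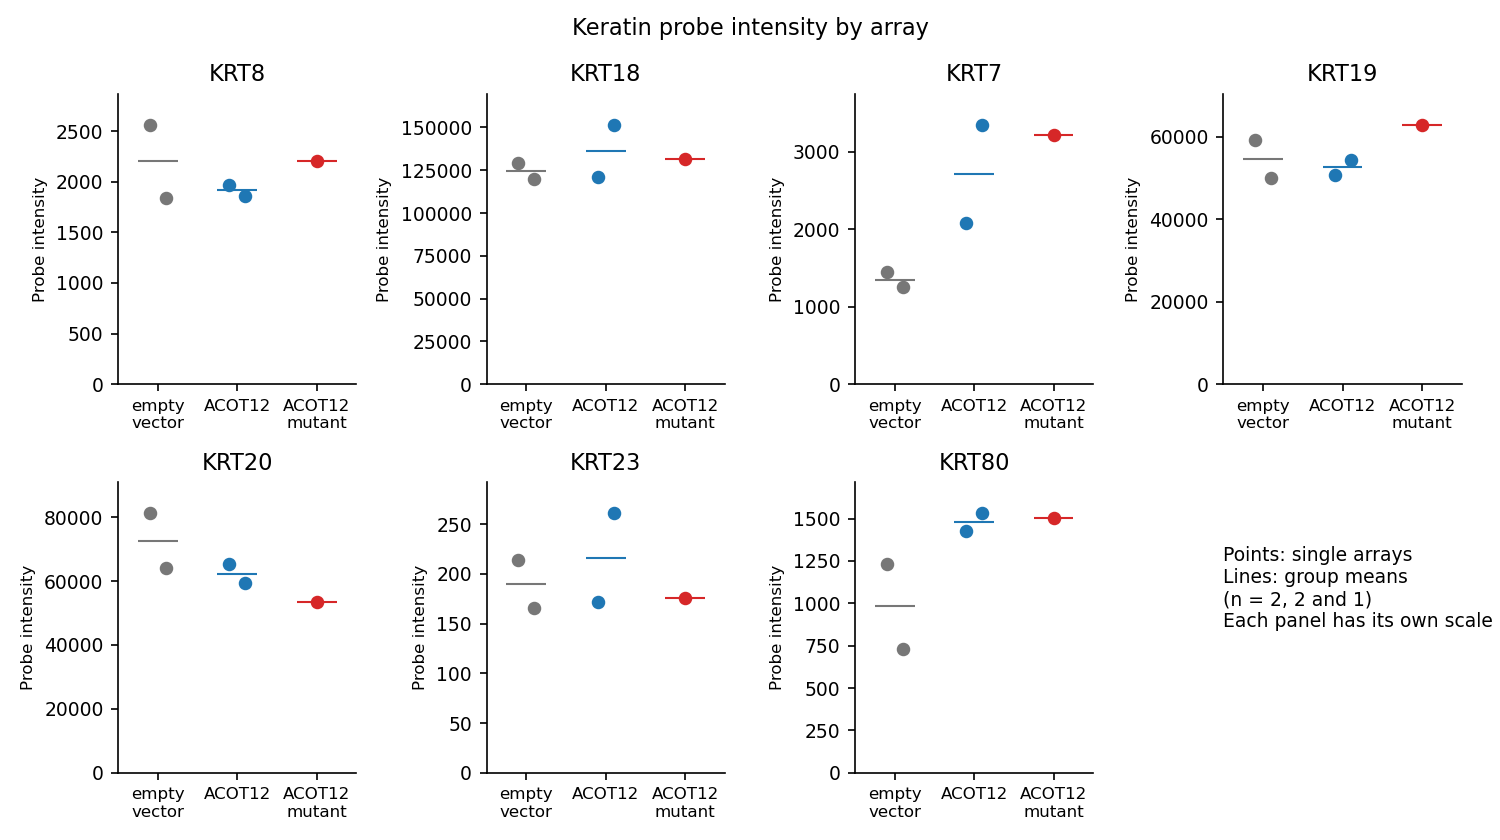
Probe intensity of 7 keratins by array, each panel on its own linear scale from 0, with points for single arrays and lines for group means (empty vector n = 2, ACOT12 n = 2, ACOT12 mutant n = 1). KRT7 and KRT80 are the panels in which all 3 transgene arrays lie above both empty vector arrays. Of all tested probes, 20.8% did so for ACOT12 and 29.5% for the mutant, and the share that did both was not computed.

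Of the biliary pair, KRT7 differed most. KRT7, its type II member, read 1453 and 1251 with empty vector, 2078 and 3352 with ACOT12 and 3216 with the mutant. The 3 transgene arrays were all higher than the 2 empty vector arrays, and ACOT12 replicate 2 lay beside the mutant array rather than beside ACOT12 replicate 1. In percentiles the probe moved from 58.8 and 59.7 to 65.8, 72.9 and 73.6, so it stood well clear of the floor on every array. Group means were 1352 ± 143 with empty vector and 2715 ± 901 with ACOT12 (SD, n = 2 each). The log2 difference was 0.97 ± 0.25 for ACOT12 (95% interval 0.35 to 1.59, limma's unadjusted p = 0.00833 and adjusted p = 0.987), which did not pass. Of 21198 tested probes, 44 had a larger positive difference in this comparison. For the mutant it was 1.25 ± 0.31 (0.50 to 2.01, limma's unadjusted p = 0.00645 and adjusted p = 0.109), with 32 probes above it. Neither comparison is independent of the other, since both use the same empty vector arrays. ACOT12 and the mutant differed by −0.29 ± 0.31 for KRT7 (−1.04 to 0.47, limma's adjusted p = 0.683).

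The size of the KRT7 difference with ACOT12 depended on the array: it was 0.62 without ACOT12 replicate 2 and 1.31 without ACOT12 replicate 1, and the adjusted p ranged from 0.0518 to 0.99999 over 17 processing alternatives. With the mutant, KRT7 passed under 5 of 16 alternatives (limma). These included median centring (1.54, adjusted p = 6.58e-06), the replicate number as a block (1.37, adjusted p = 0.0176) and a variance trend (1.25, adjusted p = 0.04998). Of 21198 probes, 2913, 2625 and 824 passed under these settings, beside 6 in the fit used here. The others left out empty vector replicate 1 (1.36) or replicate 2 (1.15), so that 1 array stood against 1. KRT7 read higher than empty vector under every alternative run for both transgenes. With 1 probe for KRT7, those that changed only the filter, the choice among probes or the variance model could not move this difference. In the brightness class of KRT7, with 2826 of all probes, the median lay 0.01 and 0.06 above the empty vector mean for the ACOT12 arrays and at −0.14 for the mutant.

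KRT19, the type I biliary keratin, did not show this pattern. Its probe read 59323 and 49967 with empty vector, 50792 and 54424 with ACOT12 and 62945 with the mutant. The ACOT12 arrays lay between the empty vector arrays, and the mutant array lay above all of them by a small margin. The difference was −0.05 ± 0.17 for ACOT12 (−0.46 to 0.36, limma's adjusted p = 0.999) and 0.21 ± 0.21 for the mutant (−0.29 to 0.71, limma's adjusted p = 0.618). The mutant difference was 0.33 without empty vector replicate 1 and 0.0855 without replicate 2. It reached 0.49 among the alternatives that left out no array. A doubling of KRT19 lay outside both intervals printed here, which come from values without rescaling. Intervals after rescaling were not computed.

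**Figure D2:**
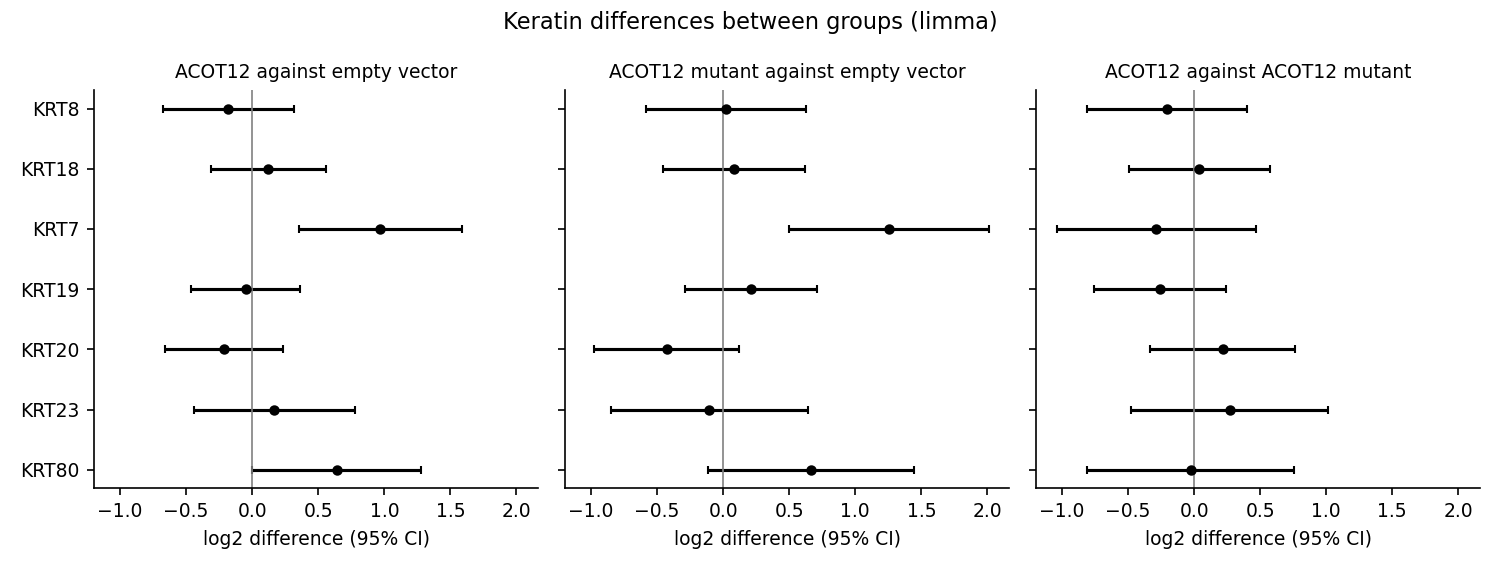
Log2 differences of the 7 keratin probes in 3 comparisons, with limma's 95% intervals as bars. The KRT7 intervals lie above 0 against empty vector (0.35 to 1.59 for ACOT12 and 0.50 to 2.01 for the mutant), and neither passed after adjustment over all probes.

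Set against the hepatocyte pair, KRT7 read higher in all 3 transgene arrays, whereas KRT19 did not with ACOT12. As a description with no test, the mean log2 value of KRT7 and KRT19 minus that of KRT8 and KRT18 was taken per array relative to the empty vector mean. It was −0.03 and 0.03 with empty vector, 0.35 and 0.62 with ACOT12 and 0.68 with the mutant. The transgene arrays did not overlap with empty vector, and how often other sets of genes show this was not computed. Of the biliary pair, only KRT7 raised this score with ACOT12, and mostly KRT7 did so with the mutant. In ACOT12 replicate 1, KRT8 (−0.14) and KRT18 (−0.04) read below the empty vector mean, which also raises it. In ACOT12 replicate 2, KRT8 read −0.22 and KRT18 0.29. KRT7 minus the hepatocyte pair read 0.72 and 1.28 with ACOT12 and 1.20 with the mutant. KRT19 minus the same pair read −0.01 and −0.03 with ACOT12 and 0.16 with the mutant, beside −0.02 and 0.02 with empty vector. Any scaling factor of an array cancels within this score. The filter, the choice among probes, the variance model and the replicate block do not enter it, so these could not move it. Under quantile normalization, cyclic loess, equalized background and the larger offset it ran from 0.47 to 0.51 for ACOT12. For the mutant it ran from 0.66 to 0.69 under the same settings, with no array left out. With 2 arrays a side, the smallest p that exact permutation could give is 0.333, so none was computed.

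**Figure D3:**
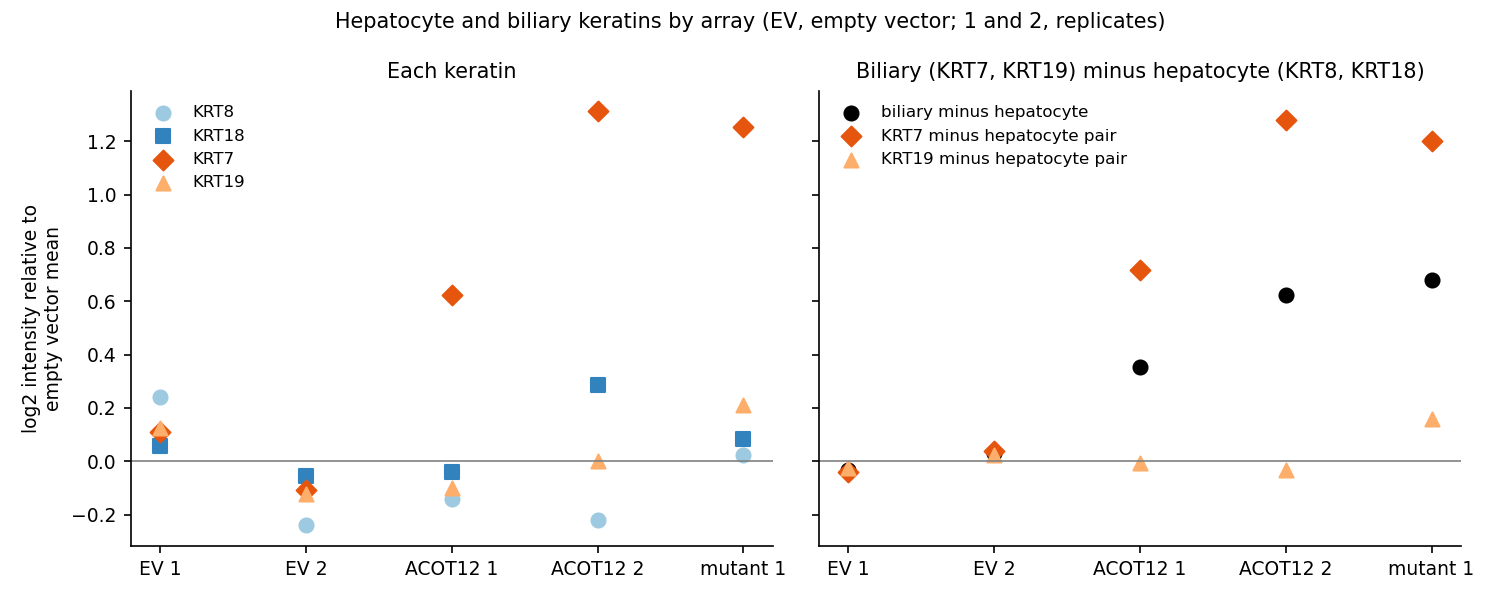
Log2 intensity relative to the empty vector mean for each hepatocyte and biliary keratin (left) and for the biliary minus the hepatocyte keratins (right), with 1 point per array. KRT7 lies 0.62 to 1.31 above the empty vector mean in the 3 transgene arrays, whereas KRT19 lies between −0.10 and 0.21.

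KRT80, which lies next to KRT7, had the second largest difference among the keratins. The probe read 1232 and 731 with empty vector, 1428 and 1532 with ACOT12 and 1506 with the mutant. The 3 transgene arrays were close to each other and above both empty vector arrays, which themselves lay 0.75 log2 apart. The difference was 0.64 ± 0.26 for ACOT12 (95% interval 0.00 to 1.28, limma's unadjusted p = 0.0497 and adjusted p = 0.987) and 0.67 ± 0.32 for the mutant (−0.12 to 1.45, limma's adjusted p = 0.309). The ACOT12 difference was 0.26 without empty vector replicate 2 and 1.02 without empty vector replicate 1. With median centring KRT80 passed for the mutant at 0.95 (limma's adjusted p = 0.00839), where 2913 of 21198 probes passed. Other coding genes around KRT80 and KRT7 were looked at after these values were seen. Of the 6 on either side, 6 in all were tested, and their differences lay between −0.13 and 0.62 with ACOT12 and between −1.56 and 0.08 with the mutant. The hair keratin KRT83 had the highest of these with ACOT12 (0.62) and read −0.38 with the mutant, and ATG101, an autophagy gene, read 0.05 with ACOT12 and −0.0034 with the mutant.

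KRT20, the intestinal keratin, gave a bright signal in these liver cells, between the 97.4th and the 98.5th percentile. It read 81247 and 63933 with empty vector, 65300 and 59358 with ACOT12 and 53568 with the mutant. The mutant array was the lowest, and the ACOT12 readings lay on both sides of the lower empty vector array. The difference was −0.21 ± 0.18 for ACOT12 (−0.66 to 0.24, limma's adjusted p = 0.997) and −0.43 ± 0.23 for the mutant (−0.98 to 0.12, limma's adjusted p = 0.346). Without empty vector replicate 1 it was −0.038 for ACOT12 and −0.26 for the mutant, without replicate 2 it was −0.38 and −0.60, and with median centring −0.34 and −0.14. CDX1 and CDX2, intestinal homeobox factors whose recognition core was found before the KRT20 start, were looked at after these values were seen. The CDX1 probe lay at the 58.8th to 62.4th percentile and that of CDX2 between the middle of the array and 53.5. With ACOT12, CDX1 read 0.26 ± 0.18 and CDX2 0.16 ± 0.17, and with the mutant −0.31 ± 0.22 and 0.04 ± 0.21.

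KRT23, a type I keratin of several epithelia, lay closest to the floor, at the 22.9th to 30.8th percentile. It read 214 and 166 with empty vector, 172 and 261 with ACOT12 and 175 with the mutant. ACOT12 replicate 2 was the highest array and the groups overlapped. The difference of 0.17 ± 0.25 with ACOT12 turned to −0.19 with quantile normalization and −0.18 with cyclic loess, and that of −0.10 ± 0.31 with the mutant turned to 0.22 and 0.13, so its direction is not resolved.

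For ACOT12 against empty vector, 0 of 7 keratin probes passed (limma) in either direction, where 0% of all tested probes did. At an unadjusted p under 0.05, KRT7 and KRT80 were higher, where 2.66% of all probes were, and none was lower, where 0.415% of all probes were. The same 2 keratins were higher with no overlap between groups, a pattern shown by 20.8% of all probes. None was lower without overlap, against 10.8%. For the mutant, 0 of 7 passed (limma), where 0% of all probes passed as higher and 0.0283% as lower. KRT7 was higher at an unadjusted p under 0.05, against 3.7% of all probes, and none was lower, against 16.8%. The mutant array lay above both empty vector arrays for KRT7, KRT80, KRT18 and KRT19, where 29.5% of all probes did. It lay below both for KRT20, where 54.6% did. Between ACOT12 and the mutant 0 of 7 passed (limma), where 9.62% of all probes passed as higher with ACOT12 and 0.0613% as lower, and none reached an unadjusted p under 0.05, against 21.2% higher and 1.56% lower. KRT20 was higher in both ACOT12 arrays than in the mutant array, as were 51.9% of all probes, and KRT8 and KRT19 were lower in both, as were 22%. The all-probe counts of this comparison rest on both ACOT12 arrays: 2053 probes passed, and 0 passed without ACOT12 replicate 1 or without replicate 2. The calls between ACOT12 and the mutant given below carry that limit. For the keratins other than KRT7, differences between ACOT12 and the mutant ran from −0.26 ± 0.21 (KRT19) to 0.27 ± 0.31 (KRT23), with limma's adjusted p between 0.556 and 0.977. The median difference of the 7 keratins was 0.12 with ACOT12, 0.08 with the mutant and −0.03 between them, beside 0.06, −0.13 and 0.14 for all probes. All 7 keratins read higher in empty vector replicate 1 than in replicate 2, as did 63.4% of all tested probes.

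The other keratins on the array, which belong to skin, hair and squamous epithelia, were often below the brightness filter. Of 46 listed, 41 were measured and 26 were tested. With ACOT12, 21 of the 26 read higher and 5 lower (median 0.35), and 0 passed limma's test in either direction. With the mutant, 7 read higher and 19 lower (median −0.57), and again 0 passed. Of all tested probes, 62.9% read higher with ACOT12 and 36.8% with the mutant. Against the mutant, 7 of 26 passed as higher with ACOT12, where 9.62% of all probes passed. Examples are KRT32, a hair keratin (2.64 ± 0.42, limma's adjusted p = 0.0320), KRT16, a keratin of activated skin (1.65 ± 0.24, adjusted p = 0.0320), KRT85, a hair keratin (2.12 ± 0.42, adjusted p = 0.0364), and KRT74, a hair follicle keratin (1.73 ± 0.28, adjusted p = 0.0320). Against empty vector these 4 read 0.36 to 0.56 with ACOT12 and −2.08 to −1.20 with the mutant. They lie in brightness classes 3, 5 and 6 from the dim end. Medians of classes 3 to 6 ran from 0.06 to 0.44 for the ACOT12 arrays and from −0.29 to −0.18 for the mutant. Among all 33 keratins tested, KRT7 had the largest and KRT80 the second largest difference from empty vector with either transgene. KRT7 had the lowest difference of the 33 between ACOT12 and the mutant.

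**Figure D4:**
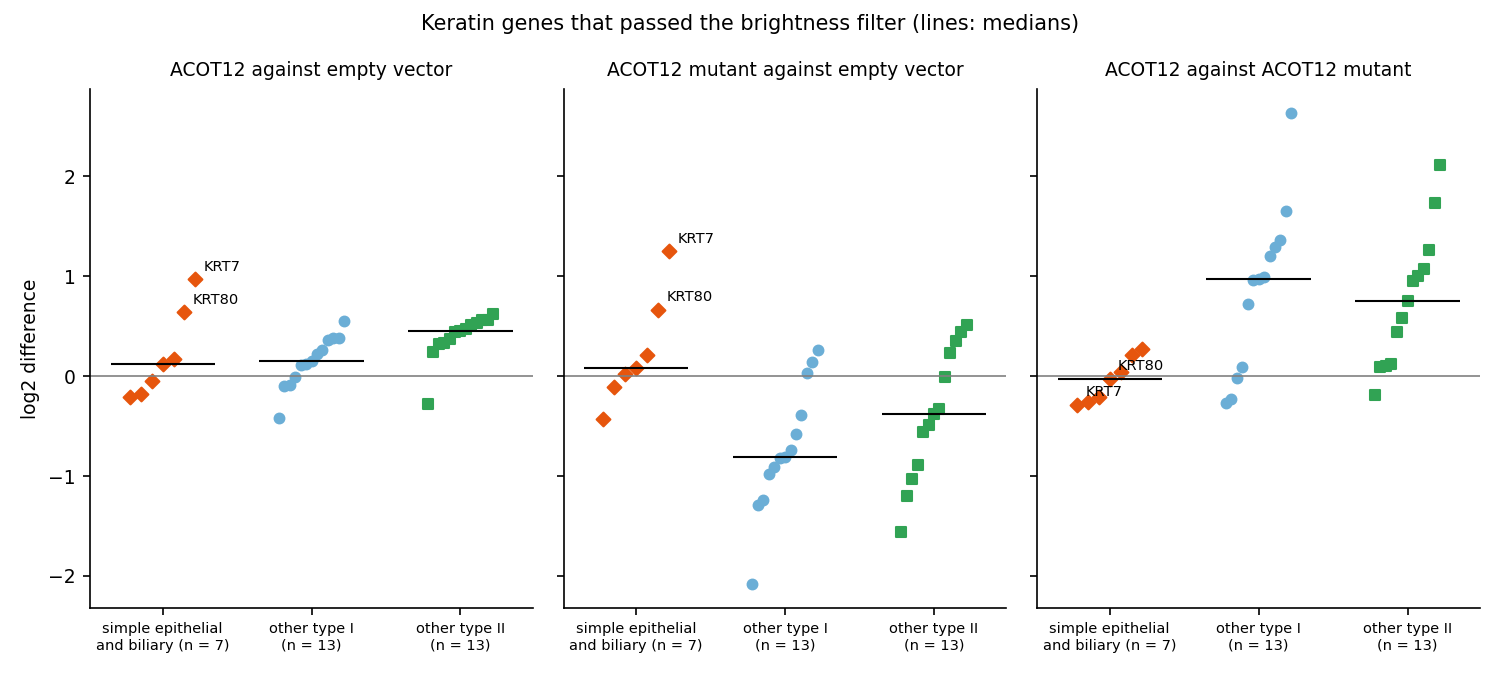
Log2 differences of the 33 keratin genes that passed the brightness filter, in 3 comparisons, with lines at the medians of the simple epithelial and biliary keratins (n = 7), other type I keratins (n = 13) and other type II keratins (n = 13). In the mutant array 19 of the 26 other keratins read lower than with empty vector, as did 13388 of 21198 tested probes. KRT7 (1.25) and KRT80 (0.67) are the highest points there.

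Keratins are tied to cell junctions by desmosomal and plakin proteins, and 17 of 18 listed anchors were tested. With ACOT12, 12 read higher and 5 lower (median 0.11), with the mutant 11 and 6 (median 0.10), and none passed limma's test. PPL (periplakin, a linker of keratin filaments) read 0.41 ± 0.15 with ACOT12 and 0.58 ± 0.19 with the mutant. PLEC (plectin, a cytolinker) read 0.31 ± 0.19 and 0.49 ± 0.23, and JUP (plakoglobin, a junction protein) 0.26 ± 0.16 and 0.32 ± 0.19. PKP1 (plakophilin 1, a desmosomal plaque protein) was the 1 anchor of 17 that passed between ACOT12 and the mutant (1.59 ± 0.29, limma's adjusted p = 0.0324), where 9.62% of all probes passed as higher. It read 0.28 ± 0.23 and −1.31 ± 0.29 against empty vector.

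Among 20 tested factors that bind or regulate keratins, 7 read higher and 13 lower with ACOT12 (median −0.02), and 9 and 11 with the mutant (median −0.02), with none past limma's threshold. KLF4, an epithelial transcription factor, read 0.36 ± 0.21 and 0.85 ± 0.25, and KLF5, a related factor, −0.31 ± 0.18 and −0.48 ± 0.22. PNN (pinin, a desmosome-associated splicing factor) read −0.15 ± 0.20 and −0.56 ± 0.25. GRHL3, a grainyhead factor of surface epithelia, was the 1 of 20 that passed between ACOT12 and the mutant (1.32 ± 0.20, limma's adjusted p = 0.0320, against 9.62% of all probes), at 0.20 ± 0.16 and −1.12 ± 0.20 against empty vector. Of 7 other intermediate filament genes tested, 5 read higher and 2 lower with ACOT12 and 3 and 4 with the mutant, with none past the threshold in any of the 3 comparisons. LMNA (the nuclear lamin A/C gene) read 0.00 ± 0.16 and 0.54 ± 0.20, LMNB1 (lamin B1) −0.41 ± 0.18 and −0.67 ± 0.23, NEFM (a neurofilament) 0.15 ± 0.17 and −0.40 ± 0.20, and PRPH (peripherin) 0.42 ± 0.27 and −0.88 ± 0.33.

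Markers of the cell types that these keratins define were read beside KRT7. Of 15 tested cholangiocyte markers, 8 read higher and 7 lower with ACOT12 (median 0.03), and 5 and 10 with the mutant (median −0.12), with none past limma's threshold. Their summed intensity was 540745 and 601977 with empty vector, 539995 and 524749 with ACOT12 and 522651 with the mutant. Such a sum mostly follows its brightest probes, so it does not describe the dimmer markers. None of the 18 measured was at or below 0. SOX9, a biliary transcription factor, read −0.35 ± 0.17 with ACOT12 and −0.72 ± 0.21 with the mutant. EPCAM, another listed marker looked up with SOX9 after values were seen, read 0.39 ± 0.24 and −0.77 ± 0.29. CD24, a progenitor and biliary surface protein, read −0.77 ± 0.16 and −1.69 ± 0.20, SLC5A1 (a glucose transporter) 0.50 ± 0.27 and −1.91 ± 0.33, AQP1 (a water channel) 0.50 ± 0.27 and −1.58 ± 0.33, and DCDC2 (a ciliary protein) 0.41 ± 0.22 and −1.30 ± 0.27. Between ACOT12 and the mutant 4 of 15 passed as higher, namely CD24, SLC5A1, AQP1 and DCDC2, where 9.62% of all probes did.

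Of 18 tested hepatocyte markers, 8 read higher and 10 lower with ACOT12 (median −0.05), and 5 and 13 with the mutant (median −0.26), with none past the threshold (limma). Their summed intensity was 119994 and 162144 with empty vector, 133553 and 141014 with ACOT12 and 134925 with the mutant, which lies inside the empty vector range. This sum too mostly follows its brightest probes. ALB, the main plasma protein, read −0.95 ± 0.21 and −1.72 ± 0.26. APOA1 (an apolipoprotein), added after values were seen, read −0.08 ± 0.29 and −0.26 ± 0.36. FBP1 (a gluconeogenic enzyme) read −0.30 ± 0.17 and −1.44 ± 0.20, APOC3 (an apolipoprotein) 0.45 ± 0.24 and −1.42 ± 0.29, and HPX (hemopexin) 0.16 ± 0.23 and −1.27 ± 0.28. APOC3, FBP1 and HPX, 3 of the 18, passed as higher with ACOT12 than with the mutant (9.62% of all probes).

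All 6 tested squamous markers read higher with ACOT12 (median 0.28), and 1 read higher and 5 lower with the mutant (median −0.42), with none past limma's threshold. Of all tested probes, 62.9% and 36.8% read higher in these comparisons. Their summed intensity was 22477 and 17209 with empty vector, 23956 and 22526 with ACOT12 and 24405 with the mutant. Most of that sum was SFN (stratifin), which alone read 19013 and 13879 with empty vector, 19264 and 18645 with ACOT12 and 21801 with the mutant. The SFN groups overlapped for ACOT12, and the mutant array was the highest. Its part in the KRT7 and KRT80 readings was not tested. SFN read 0.22 ± 0.20 and 0.42 ± 0.24, SPRR1B (a cornified envelope protein) 0.38 ± 0.19 and −1.70 ± 0.23, DSG3 (a squamous desmosomal cadherin) 0.38 ± 0.19 and −0.61 ± 0.23, and SBSN (suprabasin) 0.28 ± 0.21 and −0.82 ± 0.26. Fibroblast, endothelial and leukocyte markers had medians of 0.16, 0.30 and 0.07 with ACOT12 and −0.99, −0.59 and −0.14 with the mutant, with no member past the threshold in either. Between ACOT12 and the mutant, 3 of 6 squamous, 3 of 6 fibroblast, 4 of 12 endothelial and 0 of 7 leukocyte markers passed as higher, where 9.62% of all probes did. All 5 samples came from the single cell line MHCC97H, so these markers do not count fibroblasts, endothelial cells or leukocytes. Within the line, fewer expressing cells and less RNA per cell cannot be told apart.

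By the distance between log2 values centred over the 5 arrays, the genes whose pattern lay closest to KRT7 among 15052 were KLHL2 (0.35), C1QTNF1-AS1 (0.41), COL16A1 (0.41) and RGS17 (0.42), where a flat gene would lie at 1.29. KLHL2, a kelch family adaptor of ubiquitin ligases, read 123 and 108 with empty vector, 155 and 215 with ACOT12 and 244 with the mutant. Its readings, like those of KRT7, were higher in each transgene array. That likeness follows from its being picked for closeness to KRT7 over these same arrays. The genes closest to KRT19 were ATP2B1 (0.02), CCDC90B (0.04), AGAP1 (0.06) and EXOG (0.07), where a flat gene would lie at 0.29. ATP2B1, a plasma membrane calcium pump, read 3967 and 3385 with empty vector, 3368 and 3663 with ACOT12 and 4203 with the mutant. The differences between arrays are small for KRT19, and many genes lie close to any gene that varies little.

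**Figure D5:**
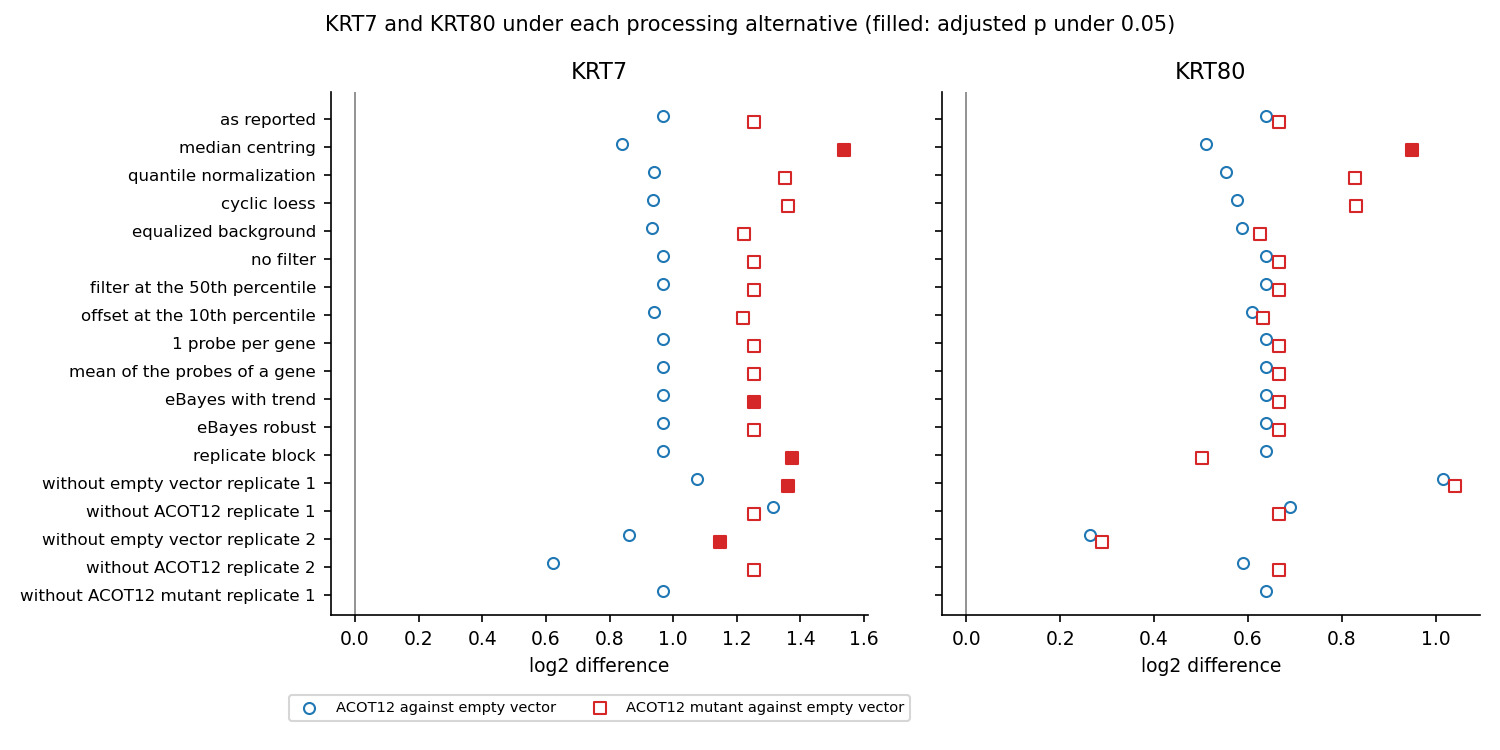
Log2 differences of KRT7 and KRT80 from empty vector under each processing alternative, with filled symbols where limma's adjusted p was under 0.05. KRT7 stays between 0.62 and 1.31 for ACOT12 and between 1.15 and 1.54 for the mutant, whereas KRT80 reads 0.26 and 0.29 without empty vector replicate 2.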

How the data were processed

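Each of the 5 samples was hybridised to its own single-channel array. The labels' protocols give Trizol extraction, amplification with an amino allyl kit and Cy5 dye. Values deposited by the authors are linear probe intensities, judged from the numbers themselves. How the authors corrected background or scaled arrays is not given in the sources used here. Of 28264 probes, 25893 had a symbol in the platform annotation.

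Negative values were replaced by 0 and log2 taken with a pseudocount of 1, without rescaling. Probes with a mean log2 below the 25th percentile were dropped, leaving 21198. A single limma fit (3.58.1, R 4.3.3) covered all arrays with group as its only term (2 residual and 4.22 prior degrees of freedom, two-sided, Benjamini-Hochberg, threshold 0.05). The lone mutant array took its spread from the other groups. Errors are SE for differences and SD for intensities, and the number of arrays limits precision. The fit was tested on simulated data with normal noise. Of added differences of 1 log2 it recovered 0.7% for ACOT12 and 0% for the mutant against empty vector. Of differences of 3 log2 it recovered 74.2% and 62.9%. A keratin that missed the threshold is therefore not shown to be unchanged.

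The members and 11 gene lists were chosen with earlier results of these data known. Of 193 listed genes, 178 were measured, each read by its brightest probe. Genes named are the keratins, ACOT12, up to 4 per list with the smallest p in any comparison, and the 4 patterns nearest to KRT7 and to KRT19. The list genes were so chosen by their p. AFP, APOA1, SOX9, EPCAM, CDX1, CDX2 and the neighbours of KRT7 were added after values were seen. Alternatives changed the scaling, background, filter, offset, choice among a gene's probes and variance model, blocked on replicate number, or left out an array.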

Additional observations from a re-analysis of the deposited data

How the results depend on the processing

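Of 340 keratin differences under 17 alternatives, 308 kept their direction and side of the threshold, 6 passed newly and 26 turned direction, the last all without a call. Many directions were fixed in advance, since changes of filter, probe choice or variance model cannot turn a keratin read by 1 probe. Leaving out an array of neither compared group cannot turn it either. The count of keratin probes past the threshold (limma) stayed 0 for ACOT12 against empty vector and for ACOT12 against the mutant. For the mutant against empty vector it was 2 with median centring (KRT7 and KRT80), 1 with a variance trend, 1 with the replicate block, and 0 to 1 with an array left out. The replicate numbers were not taken as pairing, since only 2 pairs exist and their deviations correlated at 0.16. Biliary minus hepatocyte differences ran from 0.35 to 0.62 for ACOT12, 0.65 to 0.71 for the mutant and −0.33 to −0.055 between them. Counts over all probes moved widely. For ACOT12 against empty vector, 0 probes passed, against 80 with median centring (41 higher, 39 lower), 2 with quantile normalization, 2 with cyclic loess, 1 with equalized background, 425 without a filter, 1 with an offset at the 10th percentile, 7 with the mean of a gene's probes, 1 with a variance trend, 3 with the replicate block and 0 to 11 leaving out an array. For the mutant, 6 passed, and under the same settings 2913 (1350 higher, 1563 lower), 10, 129, 14, 304, 16, 11, 824 and 2625, besides 120 when the filter was set at the 50th percentile, and 0 to 2999 leaving out an array. Between ACOT12 and the mutant, 2053 passed, against 4095 with median centring (2191 higher, 1904 lower), 551 with quantile normalization, 3 without a filter, 839 with the 50th percentile filter, 990 with the mean of a gene's probes, 3718 with the replicate block and 0 to 3521 leaving out an array. Directions turned as follows. For ACOT12 against empty vector, KRT18 read −0.0071 with median centring and −0.042 to 0.29 leaving out an array, KRT8 −0.42 to 0.058 and KRT19 −0.17 to 0.073 leaving out an array, and KRT23 −0.19, −0.18 and −0.050 with quantile, cyclic loess and equalized background, and −0.13 to 0.47 leaving out an array. For the mutant, KRT8 read −0.12 with the replicate block and −0.22 to 0.26 leaving out an array, and KRT23 0.18, 0.22 and 0.13 with median centring, quantile and cyclic loess, and −0.29 to 0.082 leaving out an array. Between ACOT12 and the mutant, median centring gave −0.37 for KRT18, −0.20 for KRT20 and −0.14 for KRT23, quantile −0.41 and cyclic loess −0.31 for KRT23, and the replicate block −0.014 for KRT18 and 0.14 for KRT80. Leaving out an array gave −0.12 to 0.20 for KRT18, −0.63 to 0.060 for KRT7, −0.030 to 0.57 for KRT23 and −0.076 to 0.025 for KRT80. KRT23 has no value under the 50th percentile filter, which it did not pass. The cause of these changes was not tested.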
